A study of Mus musculus with 2 samples.

Results

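Transcripts of 8 genes of the lymphotoxin and TNF family were followed across the cell types of the mouse omentum, chosen by symbol out of 19960 genes listed. They comprised the ligands *Lta*, *Ltb*, *Tnf*, *Tnfsf14* and *Tnfsf11* and the receptors *Ltbr*, *Tnfrsf1a* and *Tnfrsf1b*. The data were single-cell RNA-seq libraries from the omenta of WT mice and *Postn*-DTR mice, both taken 5 days after injection of diphtheria toxin (DT), with 3 mice pooled into 1 library per genotype. In *Postn*-DTR mice the DT receptor (DTR) was targeted into 1 allele of *Postn*, so that DT ablates *Postn*-expressing cells, among them the *Aldh1a2*+ fibroblastic reticular cells (FRCs) of milky spots; the WT mice carried no DTR and received the same toxin. The toxin receptor sits in the first coding exon of *Postn*, so these mice have 1 intact copy of that gene, and littermates served as controls where feasible. Because each genotype was 1 pool of mice, differences between the libraries had no replicate check, and no test was made.

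Milky spots are the lymphoid aggregates of the omentum, in which B cells, T cells, innate lymphocytes and myeloid cells gather around a stromal network. Lymphotoxin-α and lymphotoxin-β, the products of *Lta* and *Ltb*, assemble on lymphocytes into the membrane-bound LTα1β2 trimer, which signals through the lymphotoxin-β receptor (LTβR) on stromal and myeloid cells; lymphotoxin-α alone and TNF act through the TNF receptors TNFR1 and TNFR2. LTβR is known to drive the alternative NF-κB pathway and the homeostatic chemokines of lymphoid stroma, and lymphoid tissue inducer (LTi) cells are the classical source of LTα1β2 in lymphoid organ development. LIGHT (*Tnfsf14*) is a further ligand of LTβR, and RANKL (*Tnfsf11*) is a TNF family ligand by which LTi cells and activated T cells act on stromal and dendritic cells through RANK.

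The WT library held 8654 cells after filtering, with a median of 5635 unique molecular identifiers (UMIs) per cell, and the DTR library 5727 cells with a median of 8472. The cells fell into 32 clusters, grouped into 23 named classes and 5 clusters that were left unnamed. A name with "-like" means that at least 3 listed markers of that type were above the cells they were set against. The CD4 T-like name rests on 3 of 7 markers, and no cluster took it when the members were among the clustering features. The make-up of the libraries differed: plasma-like cells were 6.65% of WT and 36.0% of DTR leukocytes, B2 B-like cells 16.9% and 7.30%, and neutrophil-like cells 2.79% and 13.01%. *Postn* itself was found in 34 WT cells (84 UMIs) and 8 DTR cells (20 UMIs), and stromal cells were few in both libraries (40 and 16). The LTi-like cluster had 8 of its 9 markers above the other cells. Of 8 T markers, *Cd3e* had no UMI there in either library. The other 7 were found in its WT cells (summed level 4.76), and 3 of the 8 in its DTR cells (2.58). The level of a gene is given as its mean UMIs per 10000 UMIs of a cell. Intervals are 95% intervals of counting error only (Poisson for levels from summed UMIs, conditional binomial for ratios, Clopper-Pearson for shares of cells) and hold nothing of the spread between mice. Between the libraries, 65 barcode sequences were shared.

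*Ltb*, *Tnf* and *Lta* lie side by side on chromosome 17 in the GRCm38 assembly. *Ltb* (ENSMUSG00000024399) spans 35194439-35196320 on the plus strand, *Tnf* (ENSMUSG00000024401) spans 35199381-35202007 on the minus strand, and *Lta* (ENSMUSG00000024402) spans 35203165-35205351 on the minus strand. The gap is 3060 bp between *Ltb* and *Tnf* and 1157 bp between *Tnf* and *Lta*, so that all 3 genes fit in 10913 bp. The microRNA genes *Mir6973a* and *Mir6974* lie within *Ltb* and *Lta*. *Tnfsf14* (ENSMUSG00000005824) is on the same chromosome at 57189492-57194177, on the minus strand. *Ltbr* (ENSMUSG00000030339) and *Tnfrsf1a* (ENSMUSG00000030341) are also neighbours, at 125306571-125313885 and 125349362-125362484 of chromosome 6, on opposite strands and 35476 bp apart. *Tnfsf11* (ENSMUSG00000022015) is on chromosome 14 at 78277445-78308043, and *Tnfrsf1b* (ENSMUSG00000028599) on chromosome 4 at 145213463-145246870, both on the minus strand.

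The 250 bases upstream of the RefSeq start sites of the 3 neighbouring ligand genes (GRCm38.p6, written 5′ to 3′ on the strand of the gene) are shown because these genes lie side by side in the genome. Capitals mark a match to the NF-κB consensus motif or to the TATA box TATAAA, each searched on both strands.
Ltb, chr17:35194257-35194506, plus strand: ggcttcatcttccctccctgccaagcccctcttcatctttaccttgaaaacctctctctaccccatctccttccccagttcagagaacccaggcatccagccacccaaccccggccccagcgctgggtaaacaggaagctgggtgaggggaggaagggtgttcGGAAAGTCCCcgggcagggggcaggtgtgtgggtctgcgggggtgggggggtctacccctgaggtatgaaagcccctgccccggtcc
Tnf, chr17:35202008-35202257, minus strand: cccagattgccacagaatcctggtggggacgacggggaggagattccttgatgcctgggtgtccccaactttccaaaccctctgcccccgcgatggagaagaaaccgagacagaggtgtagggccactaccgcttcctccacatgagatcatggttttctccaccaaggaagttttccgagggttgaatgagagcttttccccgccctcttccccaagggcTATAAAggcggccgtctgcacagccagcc
Lta, chr17:35205352-35205601, minus strand: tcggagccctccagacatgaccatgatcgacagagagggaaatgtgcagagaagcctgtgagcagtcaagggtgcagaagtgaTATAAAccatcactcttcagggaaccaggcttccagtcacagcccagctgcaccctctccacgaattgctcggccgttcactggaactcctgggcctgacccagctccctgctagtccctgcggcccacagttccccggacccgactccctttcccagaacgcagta
The window of *Ltb* held 1 match to the NF-κB motif, first base at -87 from the start site, and no TATAAA. The window of *Tnf* held TATAAA at -29 and that of *Lta* at -167, and neither held the NF-κB motif in this form. Of all 32851 promoters of 300 bases in the RefSeq table, 1480 held the NF-κB motif and 4473 (13.6%) held TATAAA. The RefSeq start of *Ltb* lies inside the gene span given above, which comes from GENCODE. Among the other members, only *Tnfsf11* held a match, a TATAAA on the opposite strand at -32.

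In WT omentum the lymphotoxin subunits and RANKL were mainly transcripts of lymphocytes, whereas LTβR was mainly a transcript of myeloid and dendritic cells. LIGHT, the other ligand of LTβR, differed between the libraries: lymphocytes held 86.2% of the summed level of *Tnfsf14* in WT and 29.7% in DTR, and myeloid and dendritic cells 12.6% and 69.7%. In WT, B and T cells with NK-like, ILC2-like and LTi-like cells held 97.7% of the summed level of *Lta*, 95.1% of that of *Ltb* and 96.1% of that of *Tnfsf11*. The same cells held 6.50% of the summed level of *Ltbr*, with 24 *Ltbr* UMIs in 6449 cells, 7 of them in the 55 LTi-like cells. Myeloid and dendritic cells held 86.3% of *Ltbr* in WT and 94.0% in DTR. Stromal cells, of which few were captured (40 in WT and 16 in DTR), held 2.36% and 1.01%. In the B2 B-like cells *Ltbr* was at 2 UMIs in 1454 WT cells and 1 UMI in 416 DTR cells. Across the 47 combinations of class and library with at least 20 cells, log2 levels of *Ltb* and *Ltbr* gave a Pearson r of -0.58, and those of *Ltbr* and its neighbour *Tnfrsf1a* gave an r of 0.80; these points share libraries and are a description.

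**Figure D1:**
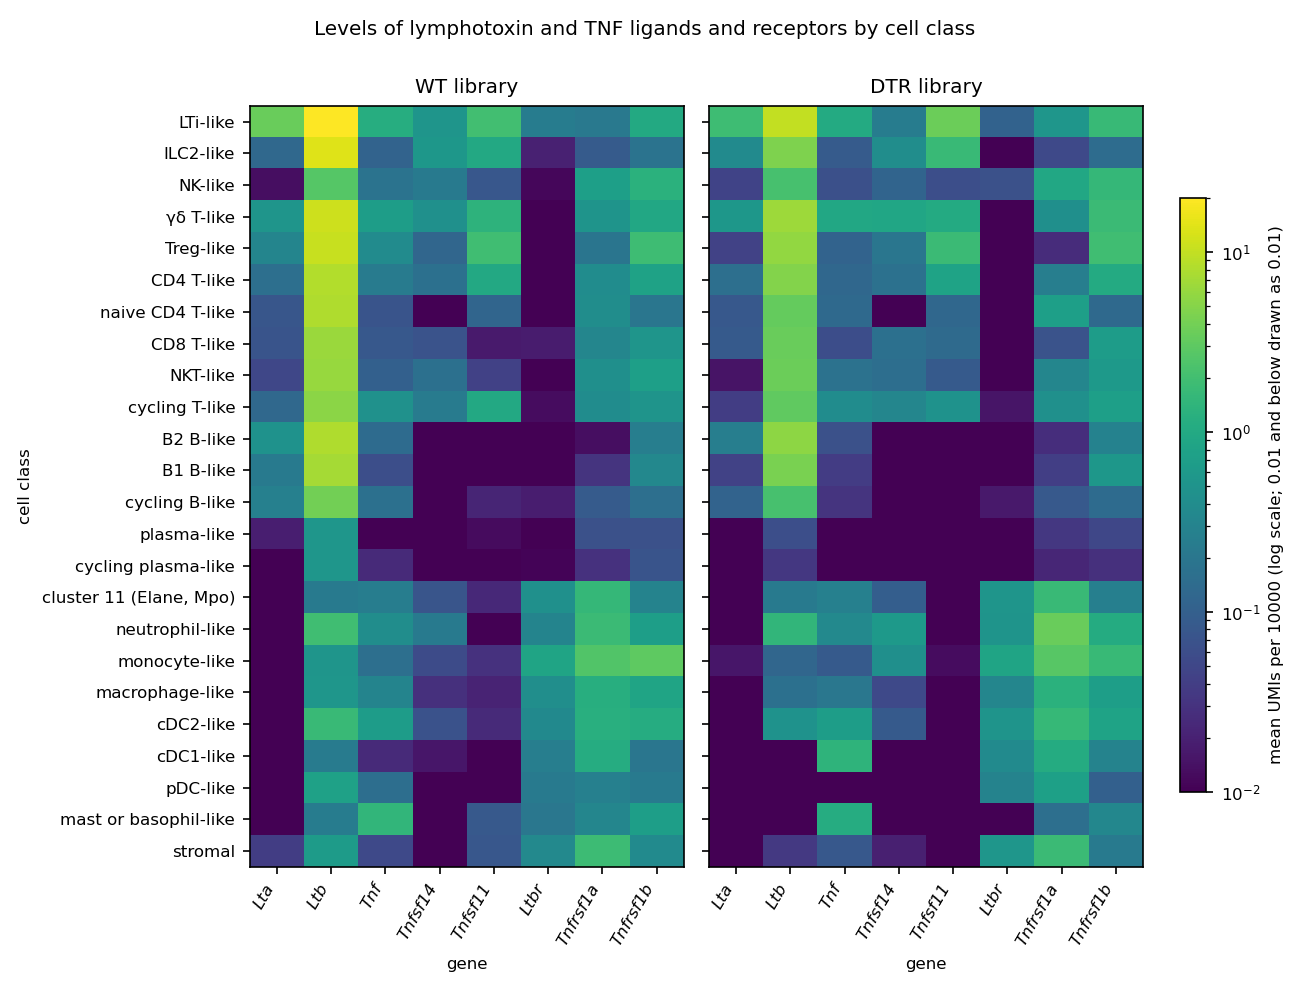
Mean level of each gene (columns; UMIs per 10000, log colour scale) in 24 cell classes (rows) of the WT library (left) and the DTR library (right). The lymphotoxin ligands are bright in lymphocyte rows, *Ltbr* and *Tnfrsf1a* in myeloid and stromal rows, and the *Ltb* column is darker in DTR.

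*Ltb*, the membrane anchor of the lymphotoxin trimer, was highest in LTi-like cells, with a level of 19.5 in WT (interval 17.6 to 20.97, 55 cells) and 9.94 in DTR (8.84 to 11.5, 50 cells). ILC2-like cells followed in WT at 13.7 but were at 4.61 in DTR. The γδ T-like cells were at 11.2 in WT and 6.54 in DTR, and Treg-like cells at 10.5 and 5.82. B2 B-like cells were at 8.12 and 5.42, B1 B-like cells at 7.12 and 4.33, and CD4 T-like cells at 8.27 and 4.91. In WT the order of LTi-like, ILC2-like and γδ T-like cells held beyond counting error, whereas CD4 T-like (7.599 to 8.163), B2 B-like (7.63 to 8.05) and naive CD4 T-like cells (7.64 to 8.43) did not differ beyond it. The intervals belong to the level of the summed UMIs, and a mean over cells can lie outside them. In DTR the order changed, since ILC2-like cells (4.11 to 5.25) came below γδ T-like cells (5.89 to 7.51).

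*Ltb* was lower in DTR than in WT in each of the 16 classes in which it could be compared (at least 100 UMIs over both libraries and 20 cells in each), by at least 2-fold in 5 of them and by at least 1.5-fold in 13. The log2 ratio of DTR to WT was -0.58 in B2 B-like cells (interval from summed UMIs -0.70 to -0.48), -0.72 in B1 B-like cells (-0.82 to -0.66) and -0.75 in CD4 T-like cells (-0.94 to -0.55). It was -0.97 in LTi-like cells (-1.16 to -0.70) and -1.57 in ILC2-like cells (-1.74 to -1.35). The smallest difference was in NK-like cells, at -0.28 (-0.64 to -0.11), followed by neutrophil-like cells at -0.38 (-0.29 to 0.11, an interval that includes 0). Over all genes and the 18 classes compared, 11.9% of gene and class pairs were at least 1.5-fold lower in DTR. Of 575 genes that could be compared in the same 16 classes, 37 (6.43%) were lower in DTR in all of them. The count of 13 classes is that of *Ltb* itself, and no other gene reached it (0.174% of the 575 with *Ltb*). *Tomm7*, *Rps21* and *Tmsb10* came close, being at least 1.5-fold lower in 12 classes each.

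By its median log2 ratio over these classes, -0.81, *Ltb* came second among the 575 genes, after *Tomm7*, a small subunit of the mitochondrial import complex, at -0.87. The next were *Rps21*, a ribosomal protein gene, at -0.68, *Tmsb10*, a thymosin that binds actin, at -0.67, and *Cox7c*, a subunit of cytochrome c oxidase, at -0.64. The genes lower in every class also included the mitochondrial *mt-Nd2*, *mt-Nd4l* and *Atp5e*, and further *Cd52* (-0.57), *Itgb7* (-0.51), *Il2rg* (-0.50) and *Xist* (-0.43). From these same libraries, the study reported *Rps21*, *Tmsb10* and *Cd52* as higher in WT than in *Postn*-DTR T cells and B2 B cells. The part that a difference between the libraries shared by all these transcripts had in the *Ltb* values was not tested.

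**Figure D2:**
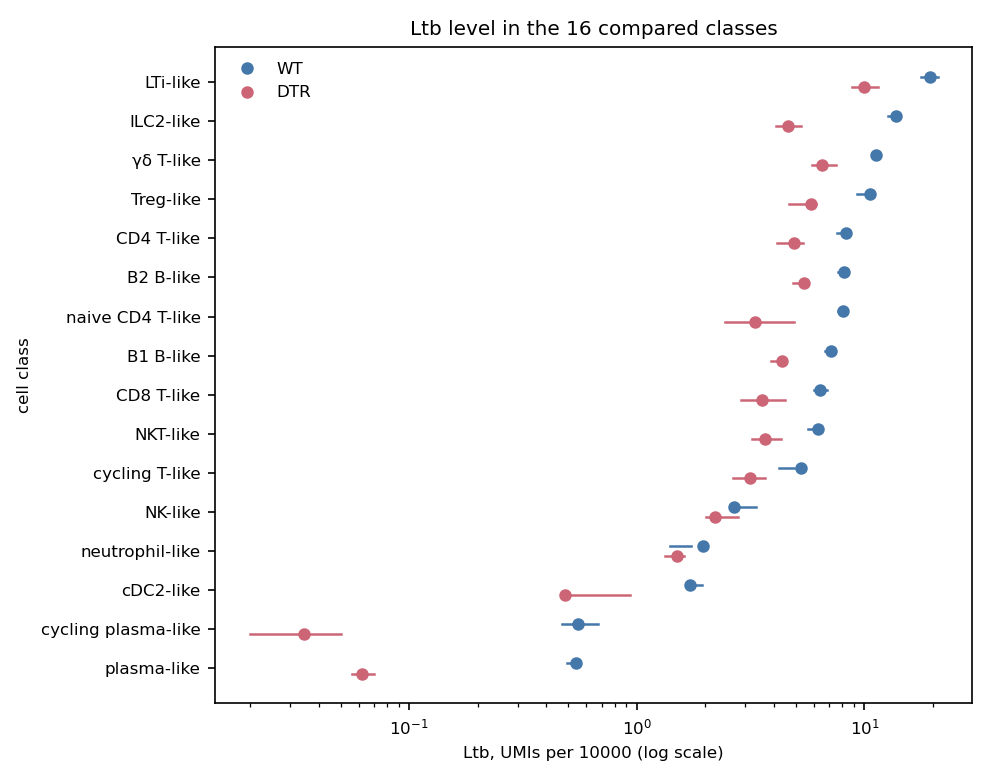
Level of *Ltb* (x axis, UMIs per 10000, log scale) in 16 cell classes (y axis) in WT (blue) and DTR (red); points are means over cells and lines the 95% Poisson intervals of the level from summed UMIs. The DTR point lies to the left of the WT point in every class, with the 2 points closest in NK-like cells.

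Classes that are not known for *Ltb* also carried some of its UMIs, and more of them in WT. The level was 0.542 in WT and 0.0617 in DTR plasma-like cells, 0.523 and 0.124 in monocyte-like cells, 0.545 and 0.166 in macrophage-like cells, and 0.640 and 0.0352 in stromal cells. When the highest of the plasma-like, monocyte-like and macrophage-like levels was taken away in each library, a step chosen after seeing the data, 14 classes kept a measurable *Ltb* level and all 14 were lower in DTR. These differences ran from -1.89 to -0.06, and 11 of the 14 were at least 1.5-fold. ILC2-like cells were then at -1.57, LTi-like cells at -0.95 and B2 B-like cells at -0.53, but differences were -0.06 in NK-like and -0.07 in neutrophil-like cells. The large log2 ratios of plasma-like cells (-3.13) and cycling plasma-like cells (-4.00) concern levels that are in this low range in WT.

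Neutrophil-like cells had been set as the class lacking *Ltb*, but their levels, 1.95 in WT and 1.501 in DTR, were above those of monocyte-like and plasma-like cells of the same libraries. After thinning each cell to 1000 UMIs, 19.3% of WT (interval 14.5 to 24.9) and 14.7% of DTR neutrophil-like cells (12.2 to 17.5) had an *Ltb* UMI, against 6 of 111 and 0 of 142 monocyte-like cells. At 2000 UMIs per cell 4 of those 142 cells had one, so the count of 0 (upper bound 2.56%) concerns cells with a UMI at that depth, not expression. On the same measure 80.0% of WT and 64.0% of DTR LTi-like cells, 51.3% and 35.4% of B2 B-like cells, and 71.5% and 31.7% of ILC2-like cells had one. NK-like cells, at 20.1% and 20.3%, had an interval that overlapped that of WT neutrophil-like cells.

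*Lta*, the subunit that can also be secreted alone, was highest in LTi-like cells, at 3.57 in WT (110 UMIs in 55 cells) and 1.88 in DTR (43 UMIs in 50 cells), a log2 ratio of -0.93 (-1.603 to -0.54). A single WT cell held 32 of those UMIs, and the log2 ratio without the highest cell of each library was -0.74. B2 B-like cells were at 0.489 and 0.261, with 272 of 1454 WT cells and 29 of 416 DTR cells having a UMI. B1 B-like cells were at 0.225 and 0.0454, a log2 ratio of -2.31 (-2.92 to -1.40) and the only one of 4 comparable *Lta* classes past 2-fold. In γδ T-like cells *Lta* was at 0.529 and 0.565, and 1 WT cell held 28 of 160 UMIs. *Lta* had 3 UMIs in 240 WT and 1 in 742 DTR neutrophil-like cells, which were its background class.

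Both subunits were found in the same cell most often in LTi-like cells. UMIs of *Lta* and *Ltb* together were in 35 of 55 WT (63.6%) and 21 of 50 DTR LTi-like cells. The shares were 17.1% and 5.29% in B2 B-like cells, 13.2% and 3.15% in B1 B-like cells, and 14.1% and 19.2% in γδ T-like cells. The *Ltb* level of cells with and without an *Lta* UMI differed in order between the libraries in Treg-like and CD4 T-like cells, from few DTR cells with an *Lta* UMI. It was 19.9 and 9.59 in WT Treg-like cells (36 and 363 cells, median depths 5303 and 4200 UMIs) but 3.65 and 5.91 in DTR (4 and 96 cells). In CD4 T-like cells it was 11.8 and 8.06 in WT but 3.33 and 4.98 in DTR (6 and 126 cells). The *Ltb* level was higher in cells with an *Lta* UMI in both libraries in B2 B-like, B1 B-like and γδ T-like cells. In B1 B-like cells it was 9.02 and 6.82 in WT and 5.45 and 4.29 in DTR. In B2 B-like cells it was 8.59 and 8.01 in WT and 7.64 and 5.26 in DTR, and in γδ T-like cells 15.9 and 10.4 in WT and 10.8 and 5.53 in DTR. In LTi-like cells of WT, *Ltb* was at 19.4 in cells with and 19.7 in cells without an *Lta* UMI. These shares were not thinned, and the median depth was 4380 UMIs in WT and 3200 in DTR B2 B-like cells and 4814 and 4299 in LTi-like cells.

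Summed over leukocytes, *Lta* was at 0.218 in WT and 0.0691 in DTR (log2 ratio -1.66), and *Ltb* at 6.26 and 1.75 (-1.84). From summed UMIs the ratios were -2.75 and -2.63, and without plasma-like and neutrophil-like cells -0.75 and -1.10. Both the make-up of the omentum and the level within classes entered these differences. With the class shares of DTR and the class levels of WT, the log2 ratio to WT would be -0.87 for *Lta* and -0.97 for *Ltb*; with the class shares of WT and the class levels of DTR, it would be -0.69 and -0.80. B cells held 52.8% of the summed *Lta* level in WT and 33.9% in DTR, and NK-like, ILC2-like and LTi-like cells 12.1% and 41.8%. The ILC2-like share of the latter rests on 7 UMIs in 4 DTR cells. For *Ltb*, T cells held 48.9% in WT and 24.2% in DTR, while B cells held 37.6% and 45.0%.

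**Figure D3:**
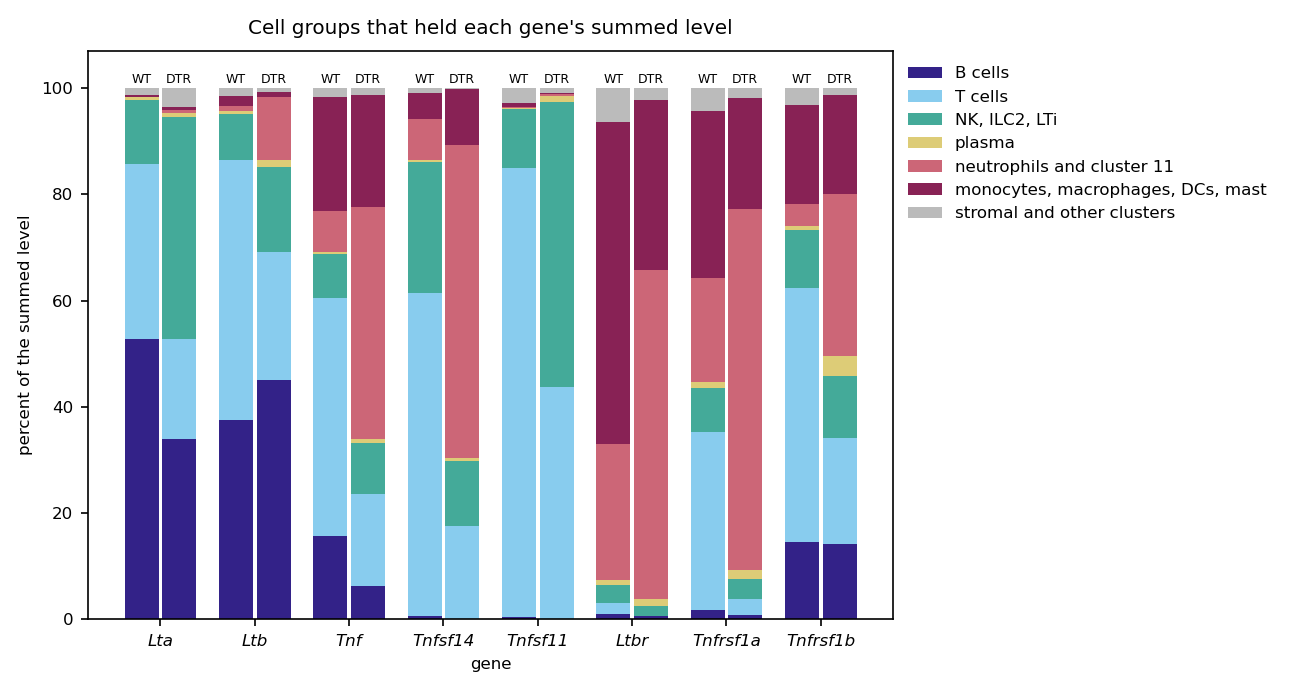
Share of each gene's summed level (y axis, percent, stacked to 100) held by 7 groups of cells in WT (left bar) and DTR (right bar). *Tnfsf14*, *Tnfrsf1a* and *Tnf* shift from T cells to neutrophils and cluster 11, which hold 59.0%, 68.0% and 43.6% in DTR, and *Tnfsf11* shifts to NK-like, ILC2-like and LTi-like cells with 53.7%.

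*Tnf*, the founding cytokine of the family, was spread over lymphoid and myeloid cells. In LTi-like cells it was at 1.15 in WT and 1.04 in DTR, in γδ T-like cells at 0.685 and 0.9501, in cDC2-like cells at 0.666 and 0.684, and in neutrophil-like cells at 0.421 and 0.355. Mast or basophil-like cells were at 1.48 and 1.12, from only 7 and 12 UMIs, 10 of the latter in 1 cell. B2 B-like cells were at 0.141 and 0.0668, a log2 ratio of -1.08 (-2.25 to -0.21) and the only one of 5 comparable *Tnf* classes past 2-fold. In γδ T-like cells the log2 ratio was 0.47 (0.10 to 1.09) but 0.12 without the highest cell of each library. In cDC1-like cells the DTR level of 1.40 came from 35 UMIs in 15 cells, 26 of them in 1 cell, so that no comparison was made. Plasma-like cells, the background class, were at 0.00969 and 0.00213.

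*Tnfsf11* was carried mainly by LTi-like, Treg-like, γδ T-like, CD4 T-like, cycling T-like and ILC2-like cells. LTi-like cells were at 2.01 in WT and 3.62 in DTR (log2 ratio 0.85, interval 0.19 to 1.21), with a UMI in 27 of 55 and 30 of 50 cells. ILC2-like cells were at 0.975 and 1.73 (0.83, 0.35 to 1.23), so that both innate classes were higher in DTR, in contrast to their *Ltb*. In T cells the levels were lower in DTR, within counting error except in the last: Treg-like cells were at 1.95 and 1.78, γδ T-like cells at 1.35 and 1.03, CD4 T-like cells at 0.991 and 0.823, and cycling T-like cells at 0.978 and 0.478 (-1.03, -1.78 to -0.47). B2 B-like cells had 2 *Tnfsf11* UMIs in 1454 WT cells and none in 416 DTR cells (median depth 3200 UMIs). Over leukocytes *Tnfsf11* was at 0.336 and 0.157 (-1.10), against -1.23 with the DTR make-up and WT levels, -1.92 from summed UMIs and -0.20 without plasma-like and neutrophil-like cells. RANK (*Tnfrsf11a*), its receptor, was highest in LTi-like cells in both libraries, at 0.871 and 1.01, and was at 0.298 and 0.245 in macrophage-like and 0.257 and 0.355 in cDC2-like cells. Osteoprotegerin (*Tnfrsf11b*), the decoy receptor for RANKL, was found in stromal cells at 0.740 in WT (51 UMIs in 14 of 40 cells) and 0.146 in DTR (4 UMIs in 2 of 16 cells). Markers of other cell types differed between the few stromal cells of the libraries, for all stromal values given here: the summed level was 147 in WT and 83.0 in DTR for 9 fibroblast markers (*Ccl19* at 0 in WT), 28.4 and 8.98 for 8 mesothelial markers, and 6.24 and 120.3 for 8 plasma markers, whose part in the stromal values was not tested.

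*Tnfsf14* was higher in DTR over all leukocytes, at 0.102 and 0.141 (0.47, but -0.43 from summed UMIs), and in both classes that could be compared it was at least 2-fold higher. Neutrophil-like cells, more frequent in DTR, held 6.28% of its summed level in WT and 55.6% in DTR. The level in γδ T-like cells was 0.453 in WT and 0.905 in DTR (log2 ratio 1, interval 0.43 to 1.59), or 0.74 without the highest cell of each library. Neutrophil-like cells were at 0.230 and 0.605 (1.39, 0.99 to 2.12). Monocyte-like cells, with 64 UMIs in all and thus under the minimum for comparison, were at 0.0568 (7 UMIs, 6 of 111 cells) and 0.440 (57 UMIs, 33 of 142 cells). The summed level of 9 neutrophil markers in monocyte-like cells was 1.34 in WT, with *Retnlg*, *Cxcr2*, *Mmp9* and *Ly6g* at 0, and 54.1 in DTR, and their part in the *Tnfsf14* values was not tested. No *Tnfsf14* UMI was found in 1454 WT or 416 DTR B2 B-like cells, and plasma-like cells, the background class, were at 0.00395 and 0.00196. Among the receptors that LIGHT or its partners use, *Tnfrsf14* was no higher than 0.101 in WT (neutrophil-like) and 0.0832 in DTR (Treg-like), *Btla* was at 1.18 and 1.47 in B2 B-like cells, and *Cd160* was highest in NKT-like cells in both libraries, at 1.72 in DTR.

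*Ltbr* followed the myeloid cells. For *Tnfrsf1a*, myeloid and dendritic cells held 51.0% of the summed level in WT and lymphocytes 43.6%, against 89.1% and 7.55% in DTR. *Ltbr* was at 0.842 in WT and 0.837 in DTR monocyte-like cells, at 0.427 and 0.331 in macrophage-like cells, at 0.369 and 0.510 in cDC2-like cells, and at 0.306 and 0.517 in neutrophil-like cells. Stromal cells were at 0.355 (30 UMIs in 18 of 40 cells) and 0.542 (20 UMIs in 8 of 16 cells). With each cell thinned to 1000 UMIs the log2 ratio of neutrophil-like cells turned from 0.76 to -0.41 and that of monocyte-like cells went from -0.01 to -1.36. None of the 3 comparable *Ltbr* classes passed 2-fold, and the intervals of monocyte-like cells (-0.31 to 0.52) included 0. *Tnfrsf1a*, encoding TNFR1, was at 2.58 and 2.75 in monocyte-like cells, 1.79 and 3.51 in neutrophil-like cells (0.97, 0.74 to 1.09), 1.19 and 1.63 in cDC2-like cells (0.45, 0.14 to 0.74, but -0.24 when thinned to 1000 UMIs) and 1.85 and 1.76 in stromal cells. B2 B-like cells, the background class, were at 0.0131 and 0.0269, while T-named classes together were at 0.393 and 0.275.

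*Tnfrsf1b*, encoding TNFR2, was spread over T cells, B cells, NK cells and myeloid cells. Treg-like cells held 14.3% of its summed level in WT and 6.71% in DTR, CD4 T-like cells 12.6% and 4.73%, and neutrophil-like cells 3.19% and 27.9%. Monocyte-like cells were highest in WT at 3.07 and were at 1.65 in DTR, a log2 ratio of -0.90 (-1.24 to -0.69). Neutrophil-like cells were at 0.710 and 1.08, a log2 ratio of 0.61 (0.67 to 1.41 from summed UMIs). Within each cluster of this class the level was lower in DTR, at 2.27 and 1.64 in cluster 7 and 0.225 and 0.0930 in cluster 13. Cluster 7, the higher of them, was 23.8% of the class in WT and 63.9% in DTR. Treg-like cells were at 1.91 and 1.93, NK-like cells at 1.28 and 1.56, and LTi-like cells at 1.01 and 1.66. The γδ T-like cells were at 0.959 and 1.79 (0.90, 0.30 to 1.14), and B1 B-like cells at 0.346 and 0.559 (0.69, 0.49 to 0.99). B2 B-like cells, at 0.255 and 0.294, differed within counting error (-0.35 to 0.65). Of 13 comparable classes none passed 2-fold.

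In all, 58 pairs of member and class could be compared. Of these, 8 were at least 2-fold lower in DTR, against 3.84% of all gene and class pairs, and 2 were at least 2-fold higher, against 2.69%. The 8 lower pairs were 5 of *Ltb* (plasma-like, cycling plasma-like, cDC2-like, ILC2-like and naive CD4 T-like cells) and 1 each of *Lta*, *Tnf* and *Tnfsf11*. Both of the 2 higher pairs were of *Tnfsf14*. In DTR, *Ltb* rested on 35 UMIs in 24 naive CD4 T-like cells, 45 in 74 cDC2-like cells and 20 in 182 cycling plasma-like cells. The interval of naive CD4 T-like cells was -1.72 to -0.71. Markers of T or B cells also differed in the classes of these *Ltb* pairs. The summed level of 8 T markers was 2.03 in WT and 0.0105 in DTR cDC2-like cells (7 of the 8 at 0 in DTR), 1.16 and 0.0735 in cycling plasma-like cells, 0.767 and 0.212 in plasma-like cells, and 8.88 and 5.29 in ILC2-like cells, with all 8 found in both libraries in the last 3. That of 6 B markers was 2.23 and 0.177 in ILC2-like cells and 0.226 and 0.0937 in naive CD4 T-like cells, but 10.8 and 11.3 in plasma-like and 1.32 and 1.85 in cDC2-like cells. In LTi-like cells, which were not past 2-fold for *Ltb*, it was 1.58 and 0.149. The part of these markers in the *Ltb* values was not tested. At 1.5-fold, 22 pairs were lower (11.9% of all pairs) and 9 higher (8.63%). With a minimum of 30 UMIs and UMIs in both libraries, 19 of 91 pairs were at least 2-fold lower (7.08% of all such pairs) and 3 at least 2-fold higher (4.36%). The median log2 ratio of all genes lay between -0.18 and 0.12 in these classes.

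**Figure D4:**
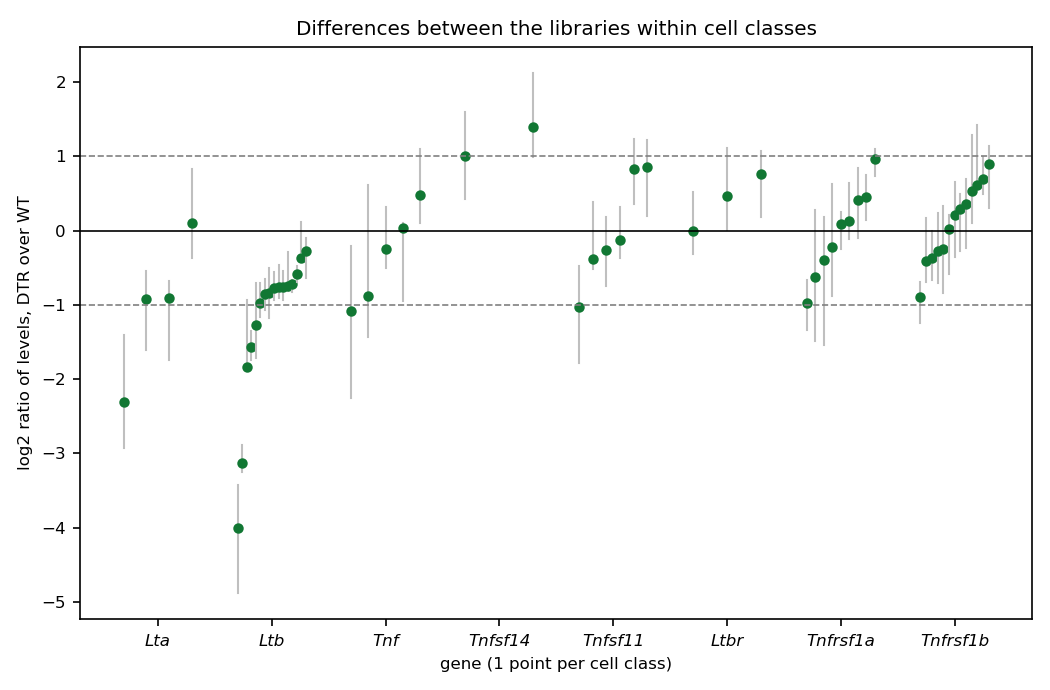
Log2 ratio of the level in DTR over WT (y axis) for each gene (x axis) in each cell class with at least 100 UMIs; points are ratios of mean levels, grey lines 95% counting intervals of the ratio of summed UMIs, and dashed lines mark 2-fold. All 16 *Ltb* points lie below 0 and both *Tnfsf14* points at or above 1.

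The neutrophil-like class joined clusters that differed in their share between libraries. Cluster 13, led by *Ltf*, *Ifitm6* and *Ngp*, made up 76.2% of WT and 36.1% of DTR neutrophil-like cells, and cluster 7, led by *Ifitm1*, *Csf3r* and *Arg2*, 23.8% and 63.9%. Cluster 11, led by *Elane*, *Mpo*, *Ctsg* and *Prtn3*, granule protein genes of granulocyte precursors, was kept apart and unnamed. In cluster 7 the levels were higher in DTR for *Tnfsf14* (0.337 and 0.907, log2 ratio 1.43, interval 0.18 to 2.20), *Tnfrsf1a* (2.35 and 4.55, 0.96, 0.59 to 1.39) and *Ltbr* (0.252 and 0.643, 1.35, 0.46 to 3.39), the WT values resting on 10, 58 and 5 UMIs in 57 cells. In cluster 13 they differed within counting error: *Tnfsf14* was at 0.197 and 0.0693, *Tnfrsf1a* at 1.62 and 1.67, and *Ltbr* at 0.323 and 0.294. *Ltb* was lower in DTR in cluster 7 (3.70 and 1.63, -1.18, -1.54 to -0.85) and differed within counting error in cluster 13 (1.40 and 1.28, -0.14, -0.28 to 0.26). *Tnfrsf1b* was higher in cluster 7 than in cluster 13 in both libraries, at 2.27 and 1.64 against 0.225 and 0.0930. Its log2 ratio was -0.46 in cluster 7 (-0.56 to 0.46 from summed UMIs) and -1.28 in cluster 13 (-2.05 to -0.28), although it was positive for the whole class.

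**Figure D5:**
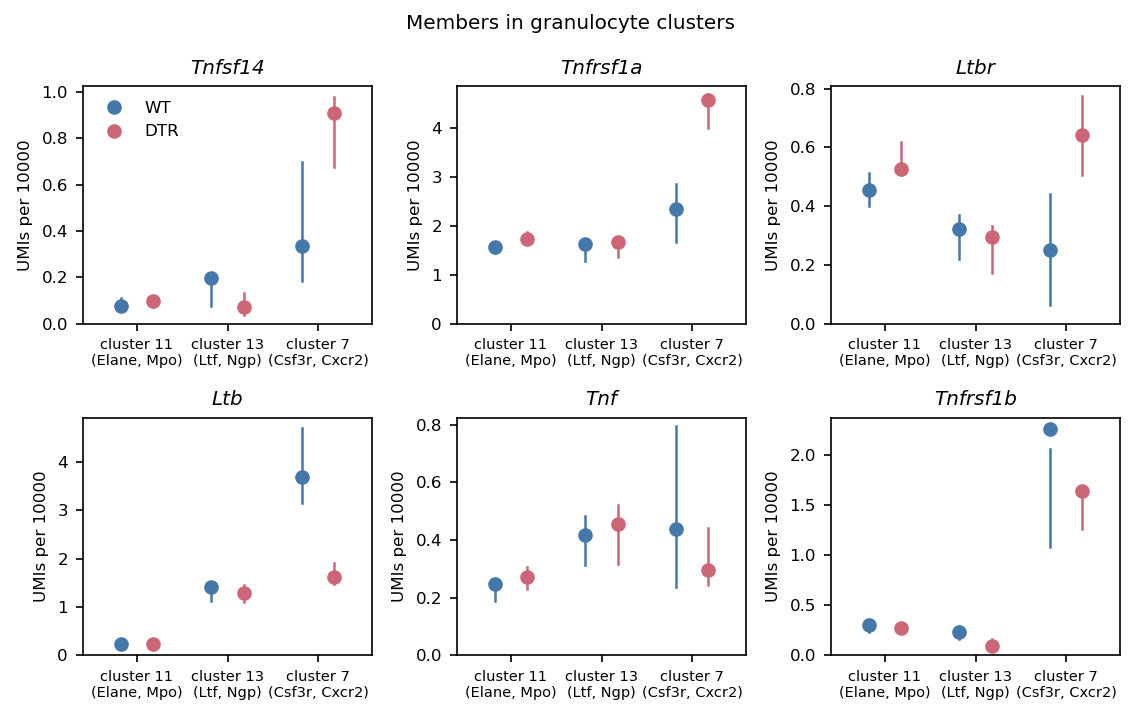
Level (y axis, UMIs per 10000) of 6 of the genes in cluster 11 and in the 2 clusters of neutrophil-like cells, 13 and 7 (x axis, with leading genes), in WT (blue) and DTR (red); points are means over cells, lines the 95% Poisson intervals of the level from summed UMIs. *Tnfsf14*, *Tnfrsf1a* and *Ltbr* are higher in DTR in cluster 7, and in cluster 13 they differ within counting error.

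The genes whose log2 levels ran most alike with those of each member over the 47 combinations of class and library, among 10398 genes, are a description. For *Ltb* they were *Rhof* (r = 0.89), *Tbc1d10c* (0.87) and *Gimap3* (0.86), and for *Lta* *Pxdc1* (0.84), *Dexi* (0.82) and *Ccr6* (0.78), a chemokine receptor of LTi and B cells. For *Tnfsf11* they were *Il2ra* (0.93), *Podnl1* (0.93) and *Tnfrsf25* (0.92), and for *Tnfsf14* *Hilpda* (0.78), *Cxcr6* (0.75) and *Krt83* (0.74). For *Ltbr* they were *Tgfbi* (0.91), *Alox5ap* (0.91) and *App* (0.90), for *Tnfrsf1a* *Xdh* (0.83), *Ugt1a7c* (0.81) and *Gsr* (0.81), for *Tnfrsf1b* *Diaph1* (0.82), *Nfil3* (0.77) and *Orai1* (0.76), and for *Tnf* *Gatad1* (0.71), *Slc6a13* (0.70) and *Slc41a3* (0.68). By Spearman correlation of the levels, all 3 genes stayed for *Tnfrsf1b*, 1 each for *Tnfsf14* and *Tnfrsf1a*, and none for the other members.

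Genes of the surrounding pathway were examined in 6 classes (B2 B-like, B1 B-like, CD4 T-like, neutrophil-like, macrophage-like and cDC2-like). In these, 3.48% of all gene and class pairs were at least 2-fold lower in DTR and 2.66% at least 2-fold higher, so that a low count past 2-fold is no trait of the pathway. Of the 15 canonical NF-κB genes, all 15 were measurable in both B-like classes, where none was past 2-fold, and 8 to 14 in the other classes. The only one past 2-fold in the 6 classes was *Map3k7*, the kinase TAK1, in cDC2-like cells (-1.39, from 8 DTR UMIs). *Rel* was at 3.28 and 2.52 in B2 B-like cells, and *Nfkbia*, encoding the inhibitor IκBα, at 5.21 and 10.1 in neutrophil-like cells (0.95). Of the 6 genes of the alternative pathway downstream of LTβR, none passed 2-fold in the 5 of these classes where any was measurable (none was in macrophage-like cells). Outside these classes *Nfkb2*, which encodes the precursor of p52 in that pathway, was at 0.3996 in WT and 0.175 in DTR plasma-like cells and at 0.324 and 0.142 in cycling plasma-like cells, values picked out after they were seen. Within the 6 classes, *Relb* was at 1.68 and 0.873 in cDC2-like cells (-0.94) and at 0.478 and 0.833 in B2 B-like cells (0.80). Of the 6 shedding genes, which include the TNF sheddase *Adam17*, 2 to 5 were measurable in a class and none of these passed 2-fold.

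Of 12 other TNF family ligands, none was measurable in the B-like classes and at most 3 in any of the others. Among these, 1 passed 2-fold, *Cd40lg*, the helper signal of T cells, in CD4 T-like cells at 1.95 in WT and 0.965 in DTR (-1.01). Of 19 other receptors and decoys, 2 to 7 were measurable in a class. At least 2-fold higher in CD4 T-like cells were 3, the costimulatory receptors *Tnfrsf9* (1.04), *Tnfrsf4* (1.09) and *Tnfrsf18* (1.11). At least 2-fold lower in cDC2-like cells were 2, *Tnfrsf18* (-1.28) and *Cd40* (-1.21). The leading genes of cDC2-like cells included *Cd209a*, a listed cDC2 marker, and *Fscn1*, a listed marker of mature dendritic cells. *Cd40lg* and *Tnfrsf4* were among the markers used to name CD4 T-like cells, and *Tnfrsf18* among those of Treg-like cells. Of 12 genes known to follow LTβR or TNF receptor signalling in lymphoid stroma, at most 3 were measurable in a class. *Cxcl13*, the chemokine that draws B cells, was at 10.96 in WT and 3.16 in DTR macrophage-like cells (-1.79), with 238 of the 845 WT UMIs in 1 cell. The summed level of 10 macrophage markers in macrophage-like cells was 147.8 in WT and 85.5 in DTR. That of 9 neutrophil markers was 8.18 and 14.7, and that of 8 plasma markers 3.97 and 12.5. The part of these markers in the *Cxcl13* values was not tested. In stromal cells *Cxcl13* was at 9.43 and 16.4, but 404 and 124 of the 531 DTR UMIs were in 2 cells. *Vcam1*, an adhesion molecule of stroma and some macrophages, was at 0.357 and 4.54 in cDC2-like cells (3.67), from 15 of 74 DTR cells. The summed level of 10 macrophage markers in the same cells was 18.8 in WT and 44.5 in DTR, with *Gata6* at 0 in DTR. Their part in the *Vcam1*, *Cd40*, *Tnfrsf18* and *Relb* values of cDC2-like cells was not tested.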

How the data were processed

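The single-cell libraries of WT and *Postn*-DTR omenta were made with a 5′ v2 kit and Cell Ranger 6.0.0 on mm10, per the labels and the submitters' processing notes, whereas the study's methods name a 3′ kit and another Cell Ranger version. The deposited values are the natural log (ln) of 1 plus UMIs per 10000 UMIs of a cell, as the values show. They were returned to the linear scale, and UMIs were recovered as whole multiples of a cell's smallest step (99.95% of WT and 99.89% of DTR values within 0.1 UMI). Where a count model had been planned, these means and summed UMIs were used instead. Cells with 200 to 7500 genes and at most 25% mitochondrial UMIs were kept and clustered with Seurat 5.3.0 and sctransform 0.4.2 (3000 variable features, 30 components, resolution 0.8), without V, D and J genes and the members. Classes were named by markers, with thresholds set after the clusters were seen. Doublets were kept in the main values; leaving out the highest Scrublet scores (scanpy 1.11.5; 0.8% per 1000 cells) was an alternative. Depths were 80152113 UMIs in WT and 81011255 in DTR. Ratios needed at least 100 UMIs over both libraries and 20 cells in each. Scripts were tested on simulated data. Named were the members, the 3 genes most alike by Pearson's r of log2(level + 0.1), and of each pathway list those past 2-fold with a few of high level. The members and lists were chosen with earlier results of these data known. Gene positions are from GENCODE on GRCm38, in which 19950 of 19960 identifiers were found.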

Additional observations from a re-analysis of the deposited data

How the results depend on the processing

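With 1 pool per genotype, no difference was tested between mice, and classes with few UMIs gave no ratio. *Ltb* was lower in DTR in all 16 classes compared under each alternative that gave those classes. Of 481 ratios within a class under the alternatives, 446 moved by no more than the half-width of their counting interval and 35 by more, 22 of them among the 56 thinned to 1000 UMIs. The sign changed in 23, from 11 pairs of gene and class, none of them past 2-fold. The ratios over all leukocytes also moved. From summed UMIs, in which cells count by their depth, the log2 ratio was -2.75 for *Lta*, -2.63 for *Ltb* and -1.27 for *Tnf*. It was -1.92 for *Tnfsf11* and -1.06 for *Tnfrsf1b*. *Ltbr*, at 1.135 in the main values, then showed no difference beyond counting error (-0.0001151, interval -0.14 to 0.14). Against main values of 0.47 and 0.94, the log2 ratio of *Tnfsf14* (-0.43) and that of *Tnfrsf1a* (-0.18) changed direction. Without plasma-like and neutrophil-like cells it was -0.75 for *Lta*, -1.10 for *Ltb*, -0.28 for *Tnf*, -0.20 for *Tnfsf11*, 1.35 for *Ltbr*, 0.75 for *Tnfrsf1a* and 0.12 for *Tnfrsf1b*, the last a change of direction from -0.30. With a minimum of 500 genes *Lta* was at -1.92. Without doublets *Ltbr* was at 1.32 and *Tnfrsf1a* at 1.02, and with reduced totals *Tnfrsf1a* was at 0.78. The pairs at least 2-fold lower numbered 19 of 91, instead of 8 of 58, with a minimum of 30 UMIs, against 7.08% of all such pairs. At least 1.5-fold lower were 22 of 58, against 11.9% of all pairs. Those at least 2-fold higher numbered 1 instead of 2 without the cell with the most UMIs, a setting chosen after seeing the data. At least 1.5-fold higher were 9, against 8.63% of all pairs. No paired analysis was possible because each genotype has 1 library.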
